A study of Mus musculus with 2 samples.

Results

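The kinesin set comprised 43 protein-coding genes out of 43346 genes measured in mouse testis, of which 21474 were protein-coding. Members were taken by name: every protein-coding gene whose GENCODE M21 symbol begins with Kif or Kifc followed by a digit. By known function, 15 were grouped as spindle and division kinesins, 17 as transport kinesins, and 10 as kinesins of the cilium or of other roles. The remaining member, Kif1bp, is a protein that binds kinesins and is not itself a motor. The polyA mRNA came from the testis of a single C57BL/6J male, an adult of 10 weeks from an inbred strain. RNA had been extracted with the RNeasy Lipid Tissue Mini Kit, and the libraries had a size range of 350 to 450 bases. The libraries were 2 technical replicates of 1 biological replicate, replicate 2 having been made later, in 2015, and replicate 1 being the earlier one. There was no second genotype, treatment or age, so each value describes this animal, and nothing was replicated across animals.

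Kinesins are motor proteins that hydrolyse ATP to step along microtubules or, in some families, to take microtubules apart at their ends. Spindle kinesins build and shorten the meiotic and mitotic spindle, move chromosomes and complete cytokinesis, whereas transport kinesins carry vesicles, organelles and flagellar building blocks. The testis uses both kinds, because spermatocytes pass through meiotic divisions and spermatids then assemble a flagellum and reshape the head along a microtubule manchette.

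The motor domain binds ATP through a short glycine-rich loop, which gives a way to see what the members share apart from their names. A stretch of 24 coding bases encoding this loop was found in 40 of the 43 members. The exceptions were Kif1bp, Kif26a and Kif26b, for which the search pattern had no match. In 11 members the encoded loop was identical in residues, yet these 11 genes used 10 distinct 24-base sequences. The sequences below, read from GENCODE M21 transcripts on GRCm38, run 5′ to 3′ on the coding strand. They are shown for 8 of those 11 genes because they let related genes be told apart at the level of bases. Capitals mark the last 12 bases, which encode the end of the loop with the lysine that contacts the phosphates of ATP.
Kif2b, chr11:91576526-91576549, minus strand: gggcagactggcAGTGGAAAAACC
Kif2a, chr13:106979480-106979503, minus strand: gggcagactggaAGTGGGAAAACT
Kif2c, chr4:117167297-117167320, minus strand: ggacagacaggcAGTGGGAAGACA
Kif27, chr13:58354590-58354613, minus strand: ggacaaactggaTCTGGGAAAACA
Kif15, chr9:122965950-122965973, plus strand: gggcagactggcTCTGGGAAGACA
Kif6, chr17:49671070-49671093, plus strand: gggcagacgggcAGTGGCAAGACA
Kifc1, chr17:33883384-33883407, minus strand: ggacagacaggcAGTGGCAAGACC
Kifc5b, chr17:26924480-26924503, plus strand: ggacagacaggcAGTGGCAAGACC
Kifc1 and Kifc5b were the only members found to share all 24 bases (Kif5b and Kif20a were not compared at this level), and their read counts are treated as uncertain below. The other sequences shown differ from one another in this stretch. Members outside that group had other loop sequences, of which 4 are given because the levels below turn on these genes.
Kif17, chr4:138268984-138269007, plus strand: ggccagacaggcAGTGGGAAGTCT
Kif9, chr9:110488553-110488576, plus strand: gggcagacaggaGCCGGCAAGACA
Kif3b, chr2:153316566-153316589, plus strand: ggacaaacaggaACTGGGAAAACC
Kif5c, chr2:49680203-49680226, plus strand: gggcagacttcaTCAGGAAAAACT
The GC content of the loop stretch ranged from 41.7% in Kif20b to 79.2% in Kif1a. The position of the loop differed between groups of genes. Among kinesin-13 genes, Kif2a, Kif2b and Kif2c have their motor domain in the middle of the protein. In these 3 the loop began 42.0% to 47.7% of the way along the coding sequence. In the 4 kinesin-14 genes (Kifc1, Kifc2, Kifc3 and Kifc5b), whose motor lies at the C-terminal end, it began at 60.9% to 63.8%. In the other 33 genes it began at 5.26% to 28.8%, with Kif24, also placed in kinesin-13, at 22.7%.

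**Figure D1:**
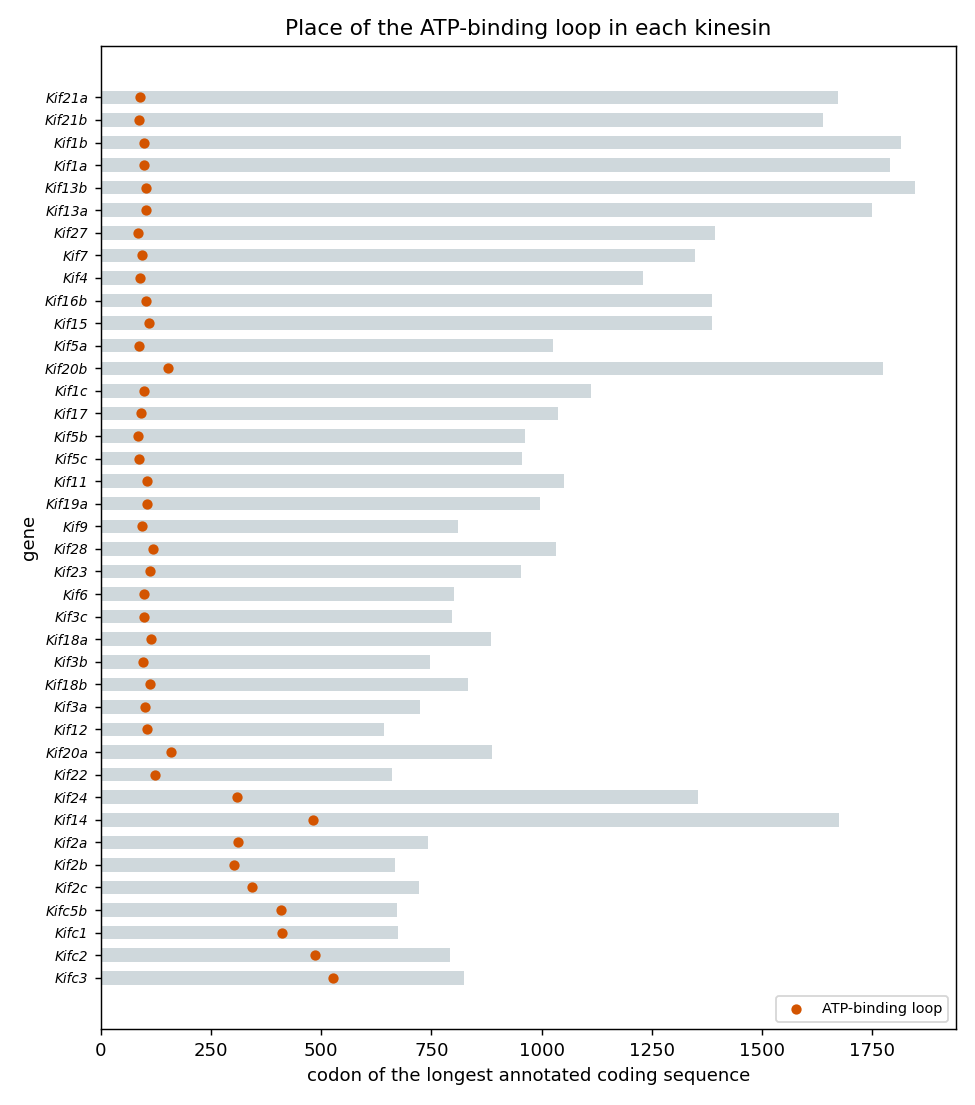
Each grey bar is the longest annotated coding sequence of a kinesin gene in codons, and the orange point is the codon at which the ATP-binding loop begins, for the 40 genes in which it was found. In Kif2a, Kif2b and Kif2c the point sits near the middle, and in the kinesin-14 genes past the middle. In the other 33 genes it lies within the first 28.8%.

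The gene tables held 20675551 expected counts in replicate 2 and 31995377 in replicate 1, of which the kinesin set took 82411 (0.399%) in replicate 2 and 108844 (0.340%) in replicate 1. Levels are given as TPM, which is scaled for transcript length and depth but not for base composition. Comparisons between genes carry that limit, since the libraries differed with GC content, as given below. Detection was set at a minimum of 1 TPM, reached in each library. By that limit 29 of the 43 members (67.4%) were detected, beside 54.6% of all protein-coding genes. A further 10 members reached the limit in replicate 2 alone, and 0 in replicate 1 alone. Of all 21474 protein-coding genes, 2274 did so in replicate 2 alone and 386 in replicate 1 alone. Detection covered 14 of 15 spindle kinesins, 10 of 17 transport kinesins and 4 of 10 in the cilium and other group. The summed TPM of the set was 2041 in replicate 2 and 1637 in replicate 1, and spindle kinesins held 54.3% of it in replicate 2 and 63.0% in replicate 1.

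The tissue label was checked against marker genes. All 10 markers of meiotic prophase, all 6 of late spermatocytes, all 9 of round spermatids and all 9 of elongating spermatids were detected, as were 9 of 10 Sertoli cell and 8 of 8 Leydig cell markers. Markers of multiciliated epithelium, which is not part of the seminiferous tubule, were detected in both libraries for 0 of 4, and neuronal markers for 2 of 7. Foxj1, a ciliogenesis factor among those 4, nevertheless had 52.7 TPM in replicate 2 and 0.59 TPM in replicate 1. The marker sums differed between the libraries. Elongating spermatid markers summed to 52375 TPM in replicate 2 and 9081 TPM in replicate 1, and prophase markers to 1421 TPM in replicate 2 and 2935 TPM in replicate 1. Not every marker moved with its list: Akap4, of the elongating list, had 1283 TPM in replicate 2 and 2072 TPM in replicate 1. The GC content of the most abundant transcript was 59.3% for Prm2, called higher in replicate 2, 46.1% for Akap4, not called, and 34.6% for Sycp1, called lower. GC content did not order every call. Tnp1 of the elongating list, at 49.2%, was called higher, and Spaca1 of the round spermatid list, at 49.5%, was called lower. Both libraries are technical replicates of 1 sample, and the part of these differences in the kinesin values was not tested.

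Spindle kinesins were led by Kif2a, Kif2b and Kif2c of the kinesin-13 family, motors that do not walk but remove tubulin from microtubule ends. These 3 genes together gave 910.4 TPM in replicate 2 and 777 TPM in replicate 1, which was 44.6% of the TPM of the kinesin set in replicate 2 and 47.5% in replicate 1. Kif2b (ENSMUSG00000046755.5, chr11:91575315-91577558, minus strand, mm10) reached 482 TPM in replicate 2 and 264 TPM in replicate 1. It is a single exon spanning 2244 bases, the only member annotated without an intron. Kif2a (ENSMUSG00000021693.15, chr13:106958996-107022126, minus strand), which acts at spindle poles, had 159.9 TPM in replicate 2 and 375 TPM in replicate 1. Kif2c (ENSMUSG00000028678.9, chr4:117159639-117182639, minus strand), the centromeric depolymerase also called MCAK, had 269 TPM in replicate 2 and 138 TPM in replicate 1. The order of these 3 genes therefore differed, with Kif2b first in replicate 2 and Kif2a first in replicate 1.

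Among the other spindle kinesins, Kif20a, which carries the chromosomal passenger complex to the spindle midzone, had 48.0 TPM in replicate 2 and 32.3 TPM in replicate 1. Kif23, the motor subunit of the centralspindlin complex in cytokinesis, had 20.2 TPM in replicate 2 and 27.6 TPM in replicate 1. These values lay within a factor of 2 of each other. A run of 4 further division kinesins was lower in replicate 2. Kif11, the plus-end motor that pushes spindle poles apart, had 20.5 TPM in replicate 2 and 47.9 TPM in replicate 1, and Kif15, which can take over part of its work, had 20.05 TPM in replicate 2 and 44.6 TPM in replicate 1. Kif18a, a kinesin-8 that limits chromosome oscillation, had 16.97 TPM in replicate 2 and 46.96 TPM in replicate 1. Kif20b, which takes part in abscission, had 14.03 TPM in replicate 2 and 37.5 TPM in replicate 1. Another run stood the other way. Kif18b, which shortens astral microtubules, had 23.1 TPM in replicate 2 and 3.16 TPM in replicate 1. Kif22, a chromokinesin that moves chromosome arms, had 16.2 TPM in replicate 2 and 3.54 TPM in replicate 1. Low but detected levels were found for Kif14, a cytokinesis motor, with 3.56 TPM in replicate 2 and 3.49 TPM in replicate 1. Kif4, a chromokinesin and the only X-linked member, had 3.39 TPM in replicate 2 and 4.25 TPM in replicate 1. Kifc1, the minus-end motor that focuses spindle poles, had 8.62 TPM in replicate 2 and 2.49 TPM in replicate 1. Its near copy Kifc5b had 4.05 TPM in replicate 2 and 0.61 TPM in replicate 1, and was the only spindle kinesin below the limit.

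Transport kinesins were led by the kinesin-2 family, with a gap between the libraries at the top. Kif17 (ENSMUSG00000028758.8, chr4:138250435-138301967, plus strand), a homodimeric kinesin-2 known in male germ cells as a partner of the transcriptional coactivator Fhl5, had 191 TPM in replicate 2 and 5.37 TPM in replicate 1. Kif3b and Kif3a, the paired motor subunits of the heterotrimeric kinesin-2 that drives intraflagellar transport, differed less between the libraries. Kif3b had 87.6 TPM in replicate 2 and 61.2 TPM in replicate 1, and Kif3a had 65.1 TPM in replicate 2 and 71.1 TPM in replicate 1. Of the kinesin-1 heavy chains, Kif5b, the broadly expressed form, had 18.3 TPM in replicate 2 and 55.0 TPM in replicate 1. Kif5c, known from neurons, had 29.6 TPM in replicate 2 and 6.97 TPM in replicate 1. This gap was one of TPM and not of reads, since Kif5c had 595 expected counts in replicate 2 and 660 in replicate 1. Detected at lower levels were Kif1b, a carrier of mitochondria and synaptic vesicle precursors, with 22.8 TPM in replicate 2 and 16.99 TPM in replicate 1, and Kif16b, an early endosome motor, with 13.2 TPM in replicate 2 and 17.97 TPM in replicate 1. Kif21a, which restrains microtubule growth at the cell cortex, had 10.5 TPM in replicate 2 and 9.77 TPM in replicate 1. Kif13b had 7.76 TPM in replicate 2 and 2.73 TPM in replicate 1, and Kif1c, a vesicle motor, had 7.90 TPM in replicate 2 and 1.19 TPM in replicate 1. The 7 transport members below the limit were Kifc3, Kif21b, Kif1a, Kif13a, Kif5a, Kifc2 and Kif3c. Kifc3, a minus-end motor of epithelial cells, spanned the widest range, with 34.5 TPM in replicate 2 and 0.32 TPM in replicate 1.

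Of the cilium and other group, 2 members were abundant in both libraries. Kif9 (ENSMUSG00000032489.13, chr9:110476958-110525179, plus strand), a motor of the central apparatus of motile flagella, had 194 TPM in replicate 2 and 135 TPM in replicate 1. Kif27 (ENSMUSG00000060176.3, chr13:58287502-58359122, minus strand), a kinesin-4 relative linked to motile cilia, had 126 TPM in replicate 2 and 151 TPM in replicate 1. Kif24, a centriolar kinesin that restrains cilium assembly, had 16.4 TPM in replicate 2 and 20.5 TPM in replicate 1, and Kif6, a motor of motile cilia, had 9.25 TPM in replicate 2 and 9.20 TPM in replicate 1. The other 6 were below the limit in at least replicate 1. Kif19a, which limits cilium length, had 12.5 TPM in replicate 2 and 0.22 TPM in replicate 1. Kif7, the Hedgehog pathway kinesin of the primary cilium, had 1.01 TPM in replicate 2 and 0.16 TPM in replicate 1. Kif26a and Kif26b stayed at 1.01 TPM or lower, and Kif28 had 1 read in each library. Kif12 had 0 counts in both, which allows up to 3 counts per library, or 0.145 CPM (counts scaled to the library total) in replicate 2 and 0.0938 CPM in replicate 1, from counting error alone. Kif1bp, which binds several kinesins and blocks their attachment to microtubules, had 54.4 TPM in replicate 2 and 36.7 TPM in replicate 1.

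**Figure D2:**
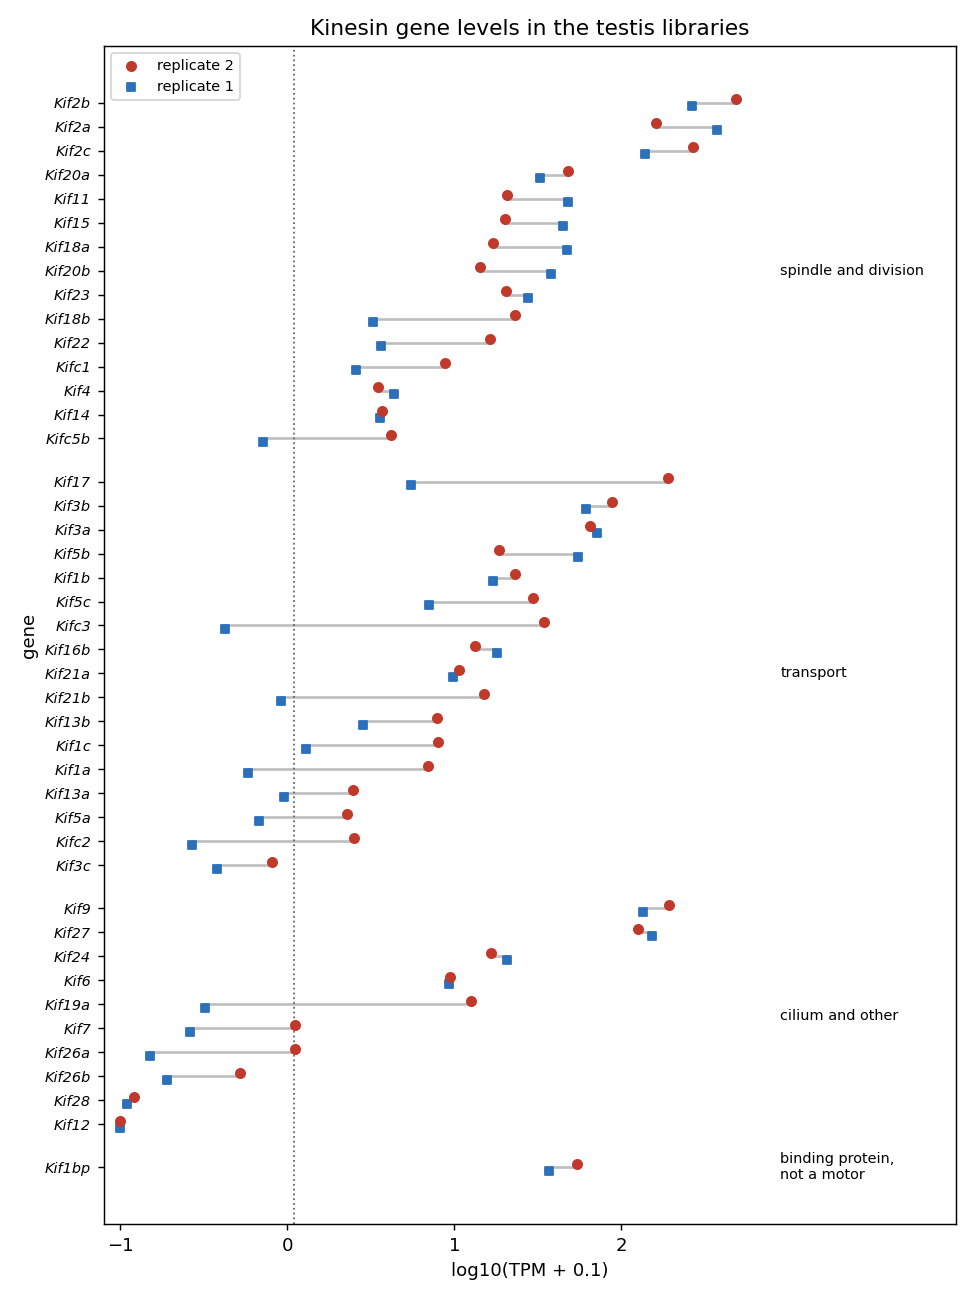
Level of each of the 43 kinesin genes as log10 of TPM plus 0.1, with a red circle for replicate 2, a blue square for replicate 1 and a dotted line at 1 TPM, grouped by role and ordered by mean TPM. All 15 spindle kinesins except Kifc5b lie right of the line in both libraries, while 7 transport members and 6 of the cilium and other group have at least 1 point left of it.

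Set among protein-coding genes, the median of the members' mean TPM, 13.1, stood at the 66.4th percentile. The median was 25.8 TPM for spindle kinesins (76.0th percentile), 10.1 TPM for transport kinesins (62.5th) and 3.47 TPM for the cilium and other group (48.5th). These medians rest in part on replicate 2, since in replicate 1 alone the cilium and other median was 0.19 TPM. In whole tissue, fewer cells of a type and less RNA per cell cannot be told apart. Across the 43 members the levels in the libraries, as log2 of TPM plus 1, had a Pearson r of 0.82 and a Spearman rho of 0.83, given as a description across genes, which are not independent.

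Related genes were compared within each library, per effective length, by an exact two-sided binomial test on the counts of the pair, adjusted by Benjamini-Hochberg over 19 pairs in both libraries (38 comparisons). A pair was called where both libraries passed an adjusted p of 0.05 in the same direction, and intervals cover counting error only, since reads are not independent molecules. This held for 9 pairs. In kinesin-13, Kif2b exceeded Kif2c by a ratio of 1.79 in replicate 2 (95% interval 1.74 to 1.84) and 1.92 in replicate 1 (1.86 to 1.98). Of the motors of motile cilia, Kif9 exceeded Kif6 by 20.9 in replicate 2 (18.8 to 23.3) and 14.7 in replicate 1 (12.9 to 16.8). The direction was shared in both pairs, and the intervals of the libraries did not overlap in either.

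Kinesin-4 relatives also stood far apart. Kif27 exceeded Kif7 by a ratio of 125 in replicate 2 (96.9 to 164) and 949 in replicate 1 (575 to 1696), where Kif7 had 15 reads. In kinesin-1, Kif5b exceeded Kif5a, the neuronal heavy chain, by 8.45 in replicate 2 (7.23 to 9.91) and 94.8 in replicate 1 (75.7 to 120.4). In kinesin-3, Kif1b exceeded Kif1a, a carrier of synaptic vesicle precursors, by 3.33 in replicate 2 (3.02 to 3.68) and 35.1 in replicate 1 (27.8 to 44.9). The direction was shared by the libraries in each of these, but the size was not. Kif13b exceeded Kif13a, an endosome motor, by 3.29 in replicate 2 (2.81 to 3.86) and 3.22 in replicate 1 (2.61 to 3.99). Kif1c stood below Kif1b, at a ratio of 0.347 in replicate 2 (0.315 to 0.381) and 0.0699 in replicate 1 (0.0585 to 0.0829). Kif3c, the alternative partner of Kif3a, stood far below Kif3b, at 0.00812 in replicate 2 (0.00626 to 0.0104) and 0.00464 in replicate 1 (0.00332 to 0.0063). Both libraries thus placed Kif3c lowest of the kinesin-2 genes.

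Kifc1 exceeded Kifc5b by a ratio of 2.12 in replicate 2 (1.71 to 2.63) and 4.19 in replicate 1 (2.06 to 8.07). This result is uncertain because reads of these near-identical genes were divided between them. Replicate 1 also held fewer counts of Kifc1 (13.8) than of Kifc5b (32.2), and the ratio there came from the short effective length assigned to Kifc1. Without length scaling the pair took opposite directions in the libraries.

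In 9 pairs the libraries gave opposite directions, so no order of the pair is given. Kif2b to Kif2a had a ratio of 3.01 in replicate 2 and 0.704 in replicate 1, and Kif2a to Kif2c had 0.595 in replicate 2 and 2.72 in replicate 1. Kif3a to Kif3b had 0.743 in replicate 2 and 1.16 in replicate 1, so that the paired subunits of kinesin-2 stayed close to equal levels. Kif5b to Kif5c had 0.618 in replicate 2 and 7.89 in replicate 1. Without length scaling Kif5b exceeded Kif5c, and Kif3b exceeded Kif3a, in both libraries. The division kinesins Kif18a and Kif18b had a ratio of 0.735 in replicate 2 and 14.9 in replicate 1, and Kif20b to Kif20a had 0.292 in replicate 2 and 1.16 in replicate 1. Kif21a to Kif21b, a neuronal relative, had 0.706 in replicate 2 and 11.9 in replicate 1. Kif26a to Kif26b had 2.39 in replicate 2 and 0.602 in replicate 1, where 8 reads of Kif26a and 19 of Kif26b did not pass the exact test (adjusted p = 0.247). For the light chains of kinesin-1, Klc3 to Klc1 had 2.01 in replicate 2 and 0.0256 in replicate 1, with 1 read of Klc3 in replicate 1. The remaining pair, Kifc3 to Kifc2, had 14.4 in replicate 2 and 1.87 in replicate 1 (0.844 to 4.34), and was not called.

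**Figure D3:**
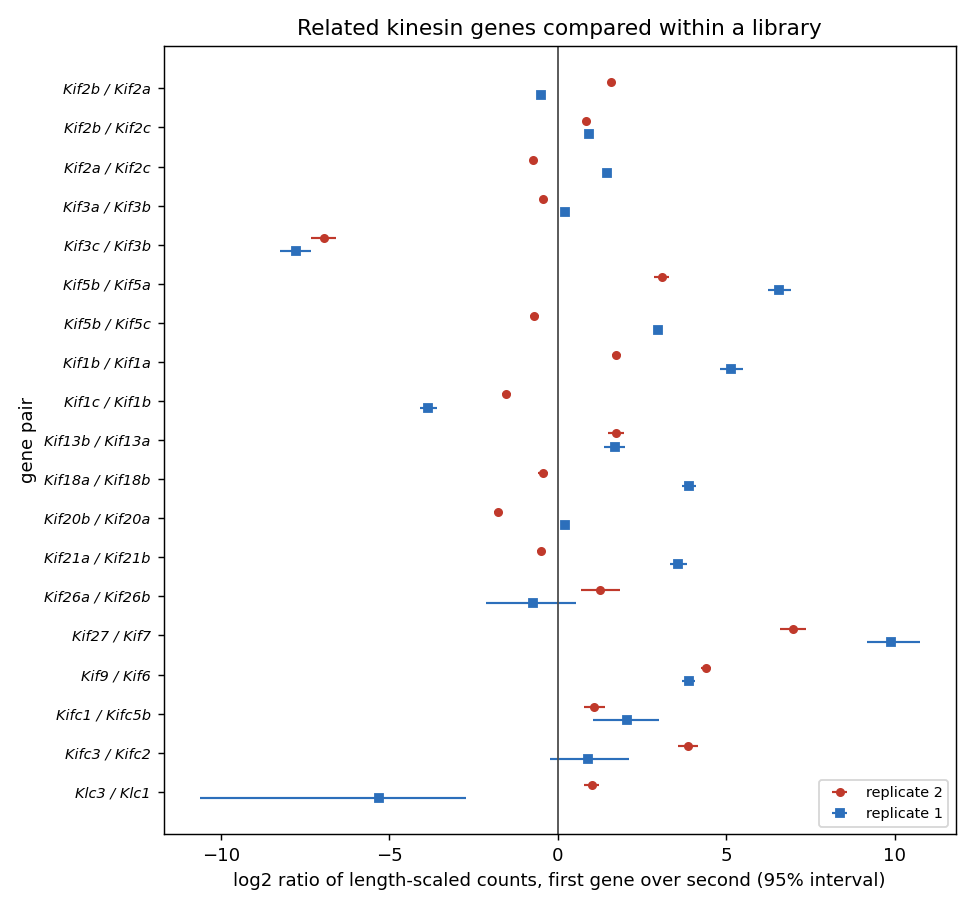
Log2 ratio of length-scaled counts, first gene over second, for the 19 pairs, with red circles for replicate 2, blue squares for replicate 1 and bars for the exact 95% interval. Of the 19 pairs, 9 lie on the same side of 0 in both libraries and pass the test, 9 lie on opposite sides, and Kifc3 over Kifc2 is not called because its replicate 1 interval crosses 0.

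The libraries themselves were compared on read counts, gene by gene, with a two-sided exact binomial test conditional on the summed count, TMM-scaled library sizes and Benjamini-Hochberg adjustment over 18581 genes. Calls needed a ratio of at least 2 together with an adjusted p below 0.05. The test compares the reads of these libraries and says nothing of animals or conditions. Of 41 members tested, 24 were called, beside 55.8% of all tested genes, so the kinesin share was near the background. By direction, 18 members were higher in replicate 2, beside 32.3% of all tested genes, and 6 were lower, beside 23.5%. Transport kinesins had 10 higher and 1 lower of 17, spindle kinesins 4 higher and 5 lower of 15, and the cilium and other group 4 higher and 0 lower of 8.

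The 6 lower members were division kinesins except for Kif5b. Log2 ratios of replicate 2 over replicate 1 were -1.77 for Kif18a, -1.73 for Kif20b, -1.53 for Kif11, -1.50 for Kif2a, -1.46 for Kif15 and -1.36 for Kif5b. By the exact test the adjusted p was 1.13e-248 for Kif18a and 4.89e-237 for Kif5b. Of the 18 higher members, Kifc3 had the largest log2 ratio, 6.47, from 1357 counts in replicate 2 and 19 in replicate 1. Kif19a followed at 6.03 with 333 counts in replicate 2 and 6 in replicate 1. Kif17 had a log2 ratio of 4.93, from 7999 counts in replicate 2 and 334 in replicate 1. Next came Kifc1 at 4.48, Kif21b at 3.95, Kif26a at 3.81, Kifc2 at 3.43, Kif1a at 3.06, Kif18b at 2.64 and Kifc5b at 2.41. The other 8 ranged between Kif1c at 2.33 and Kif3c at 1.01, and were Kif7, Kif22, Kif5a, Kif26b, Kif13b and Kif13a besides these. Kif6 was not called at a log2 ratio of 0.93, but was called higher with plain totals as library sizes, with which the median log2 ratio of all genes is 0.29 instead of 0.01.

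The direction of these differences moved with base composition. Members whose most abundant transcript had a GC content under the all-gene median of 49.1% numbered 16, of which 0 were higher in replicate 2, 6 were lower and 10 were not called. Of the 25 members at or above it, 18 were higher, 0 were lower and 7 were not called. The median log2 ratio of all tested genes ran the same way, from -1.99 near 35.2% GC to 5.23 near 64.5% GC. The share of all tested genes called in each class was not counted. Whether the split of the members differs from that of other genes was therefore not tested. Across the 41 members GC content and log2 ratio had a Pearson r of 0.91 and a Spearman rho of 0.96, and across 18396 tested genes 0.82 and 0.89. These are descriptions across genes of the same libraries. The median GC content was 52.5% for transport kinesins, 54.2% for the cilium and other group and 48.1% for spindle kinesins. When each gene was set against genes of similar GC content, 7 members were called, beside 20.2% of all tested genes. On that scale the log2 ratio was 2.61 for Kifc3, 2.13 for Kif19a, 1.30 for Kifc1, 1.21 for Kif21b and 1.02 for Kif1a, all higher in replicate 2. Kif7 at -1.84 and Kif26b at -1.73 were lower in replicate 2 on that scale, though both were higher on the unadjusted one. The value of Kif26b rests on which transcript gives its GC content. Most of its reads were on Kif26b-202, with 53.1% GC, whereas Kif26b-203, of highest mean TPM, has 57.05%. With the transcript of most reads, an alternative added after the data were seen, 5 members were called, beside 19.4% of all tested genes. Kif26b then had a log2 ratio of 0.14 and Kif1a 0.90, neither called. Kif17 had 0.62 on the first GC scale and 0.74 with the transcript of most reads. Kif2a had -0.31 on the first and 0.13 with the transcript of most reads. Neither was called on either scale.

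**Figure D4:**
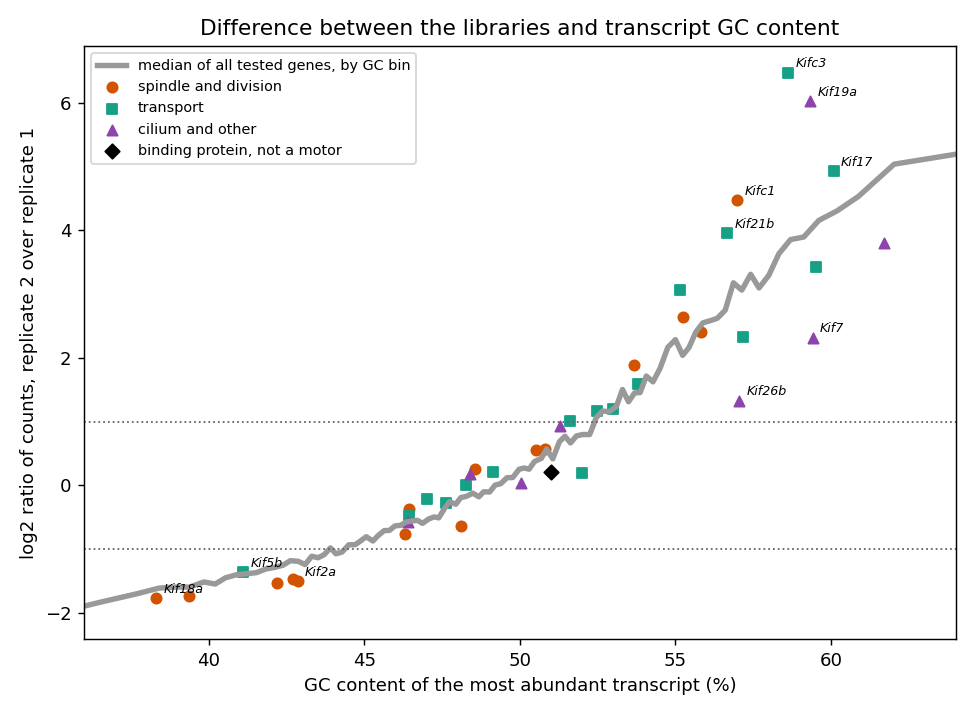
Log2 ratio of counts, replicate 2 over replicate 1, against the GC content of the most abundant transcript for the 41 members tested, with a symbol for each role, the grey line for the median of all tested genes in bins of GC content and dotted lines at a ratio of 2 in each direction. The members run along the grey line, and Kifc3 and Kif19a lie above it while Kif7 and Kif26b lie below it.

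Several members share exon sequence with another gene on the opposite strand, and whether the counting used strand is not given in the sources used here. Kifc2 shares 163 exon bases with Cyhr1, which had 3970 counts in replicate 2 and 247 in replicate 1. This neighbour thus held more reads than Kifc2, which had 97 counts in replicate 2 and 11 in replicate 1. Kif7 shares 877 bases with the antisense gene 9330171B17Rik, which had 731 counts in replicate 2 and 919 in replicate 1, beside 60 counts of Kif7 in replicate 2 and 15 in replicate 1. Kif3c shares 2617 with 1110002L01Rik, which had 406 counts in replicate 2 and 641 in replicate 1, beside 65 counts of Kif3c in replicate 2 and 41 in replicate 1. Overlaps of Kif20a with Cdc23 (1271 bases), Kif2a with Dimt1 (1229 bases) and Kif4 with Pdzd11 (832 bases) involved neighbours with fewer reads than the kinesin. How far these overlaps enter the kinesin counts was not tested.

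Most detected kinesins have several annotated transcripts, and the transcript tables give each one's share of its gene's TPM. Of 20 detected members with more than 1 transcript, 11 (55.0%) kept 1 leading transcript across the libraries, beside 66.2% of 9123 such genes. Kif18a was made up almost wholly of Kif18a-201, at 99.8% in replicate 2 and 99.3% in replicate 1, and Kif4 of Kif4-201, at 100% in both. Kif9-201 held 69.7% of Kif9 in replicate 2 and 86.7% in replicate 1. Kif2c-202 held 64.2% of Kif2c in replicate 2 and 74.4% in replicate 1, and Kif2a-202 held 52.2% in replicate 2 and 39.7% in replicate 1 of Kif2a. Kif9, Kif2c and Kif2a thus kept their leading transcript by TPM, with shares that differed between the libraries. By expected counts Kif2a did not, since Kif2a-202 led in replicate 2 with 2107 and Kif2a-201 in replicate 1 with 6593.

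Kif17 was divided between a pair of transcripts, Kif17-201 with 48.9% in replicate 2 and 31.2% in replicate 1 and Kif17-202 with 47.5% in replicate 2 and 54.5% in replicate 1. Its leading transcript was thus Kif17-201 in replicate 2 and Kif17-202 in replicate 1. In Kif5b, Kif5b-201 held 92.0% in replicate 2 and 49.6% in replicate 1, where Kif5b-202 held 37.0%. Other genes also differed in their leading transcript. Kif3a-201 led Kif3a in replicate 2 with 44.95%, and Kif3a-203 led it in replicate 1 with 53.15%. For Kif1b the leader was Kif1b-202 in replicate 2 with 44.59% and Kif1b-203 in replicate 1 with 46.98%. Kif1c-202 held 66.2% in replicate 2 and 0% in replicate 1, and Kif1c-204 held 0% in replicate 2 and 77.4% in replicate 1. Kif21a-205 held 67.9% in replicate 2 and 24.8% in replicate 1, and Kif24-202 held 73.2% in replicate 2 and 31.5% in replicate 1. In Kif5c the 775-base Kif5c-204 held 41.7% in replicate 2 and 0% in replicate 1. In Kif6 the 614-base Kif6-204 held 7.80% in replicate 2 and 54.6% in replicate 1. In Kifc1, Kifc1-204 held 92.3% in replicate 2, while the 406-base Kifc1-206 held 95.3% in replicate 1. These short transcripts have short effective lengths, which raise TPM per read, and for Kif5c, Kif6 and Kifc1 the libraries' TPM and counts gave different ratios. Kif6, for example, had 361 counts in replicate 2 and 242 in replicate 1 at nearly equal TPM.

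**Figure D5:**
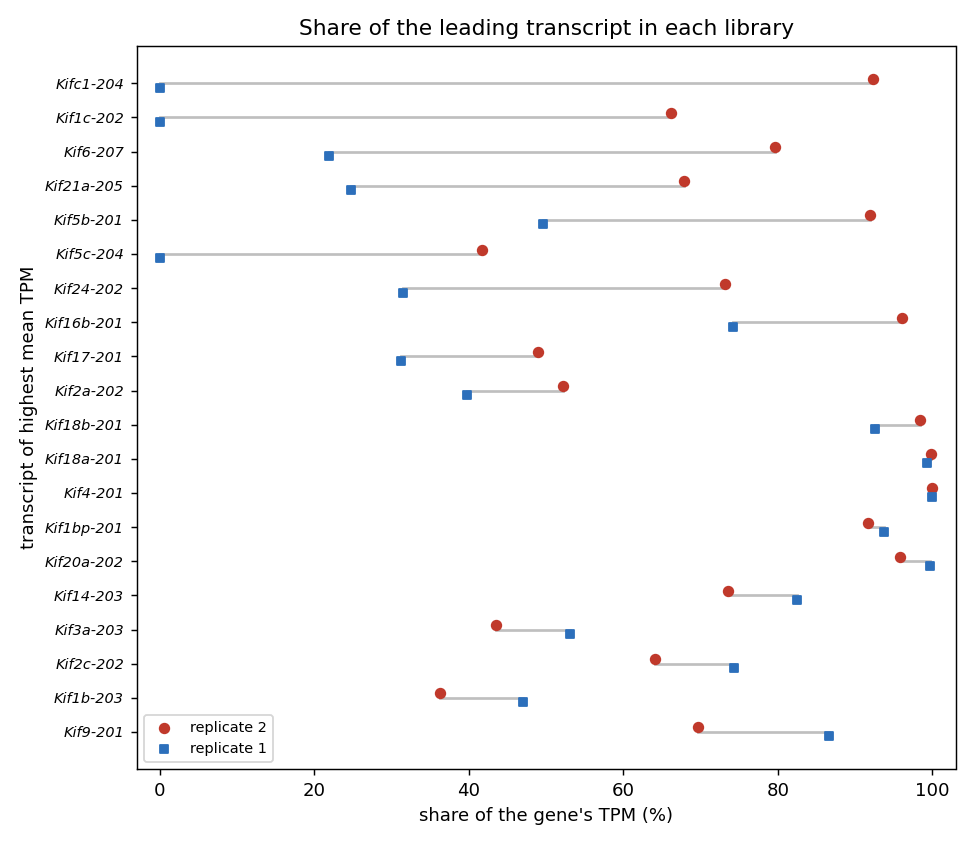
Share of a gene's TPM, in percent, held by its transcript of highest mean TPM, for the 20 detected kinesins with more than 1 annotated transcript, with red circles for replicate 2 and blue squares for replicate 1. Kif18a-201, Kif4-201 and Kif20a-202 stay above 95% in both libraries, while Kifc1-204, Kif1c-202 and Kif5c-204 are at 0% in replicate 1.

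Promoters were examined for what the role groups share in sequence. RefSeq windows of 300 bases around a gene's start on GRCm38.p6 matched 33 of the 43 members and gave 37 promoters. Each window is counted, so 15 spindle promoters come from 14 genes, 13 transport promoters from 11 and 9 in the cilium and other group from 8. They are not independent, since windows of the same gene overlap in Kif1b, Kif2a and Kif9, and Kifc1 and Kifc5b are near copies. The starts are those of RefSeq, and 5 of them lie over 1000 bases inside the M21 gene: Kif17 (11816 bases), Kif2c (3867), Kif27 (4175), Kif14 (1505) and a second start of Kif1a (19471). Short motifs were searched on both strands: the CHR (TTTGAA or TTCGAA), an element known from cell cycle genes, the CCAAT box, and the CRE (TGACGTCA), the element of the CREB and CREM factors. None of these motifs contains another. The CHR letters occurred in 11 of 15 spindle kinesin promoters (73.3%), 1 of 13 transport promoters (7.69%) and 3 of 9 in the cilium and other group (33.3%), and in 19.2% of all 32851 promoters. Without those 5 windows, a choice made after the data were seen, the counts were 9 of 13 spindle, 0 of 11 transport and 2 of 8 in the cilium and other group. The CCAAT box occurred in 9 of 15, 4 of 13 and 4 of 9, and in 37.4% of all promoters. The full CRE occurred in the promoters of Kif18a, Kif17 and Kif5c, 8.11% of member promoters, and in 1.79% of all. Without the 5 windows over 1000 bases inside the M21 gene, that of Kif17 among them, it occurred in 2 of 32. Base composition differed between these sets. The median GC content was 63.0% in member promoters and 52.7% in all, and the median number of CG pairs was 26 and 7. The part of this in the motif shares was not tested. Spindle kinesins without CHR letters in the window were Kif2a, Kif2b and Kif18a. The windows of Kif11 and Kif23 are printed because they hold the CHR letters, that of Kif2b because this spindle kinesin of highest mean TPM does not, and that of Kif17 for its CRE. They run 5′ to 3′ on the gene's strand, with capitals for any of these motifs on either strand.
Kif11, chr19:37376132-37376431, plus strand: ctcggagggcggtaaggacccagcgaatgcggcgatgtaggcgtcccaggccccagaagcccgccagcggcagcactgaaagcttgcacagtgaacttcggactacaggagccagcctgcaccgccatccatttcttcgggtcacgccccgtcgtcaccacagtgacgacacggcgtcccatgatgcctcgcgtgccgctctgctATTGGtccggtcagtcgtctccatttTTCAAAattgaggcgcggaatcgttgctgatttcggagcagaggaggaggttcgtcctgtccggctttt
Kif23, chr9:61946750-61947049, minus strand: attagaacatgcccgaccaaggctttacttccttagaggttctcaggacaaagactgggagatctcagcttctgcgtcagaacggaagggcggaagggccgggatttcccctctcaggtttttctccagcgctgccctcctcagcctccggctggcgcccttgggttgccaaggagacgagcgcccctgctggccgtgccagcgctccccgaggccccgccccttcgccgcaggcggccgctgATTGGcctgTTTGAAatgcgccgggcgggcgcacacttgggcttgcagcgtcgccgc
Kif2b, chr11:91577506-91577805, minus strand: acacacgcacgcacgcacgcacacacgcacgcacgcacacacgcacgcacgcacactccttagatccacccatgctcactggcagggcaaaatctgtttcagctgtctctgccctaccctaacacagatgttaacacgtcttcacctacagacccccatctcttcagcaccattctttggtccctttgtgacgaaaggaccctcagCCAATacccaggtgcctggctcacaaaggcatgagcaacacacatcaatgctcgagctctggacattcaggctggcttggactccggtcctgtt
Kif17, chr4:138262001-138262300, plus strand: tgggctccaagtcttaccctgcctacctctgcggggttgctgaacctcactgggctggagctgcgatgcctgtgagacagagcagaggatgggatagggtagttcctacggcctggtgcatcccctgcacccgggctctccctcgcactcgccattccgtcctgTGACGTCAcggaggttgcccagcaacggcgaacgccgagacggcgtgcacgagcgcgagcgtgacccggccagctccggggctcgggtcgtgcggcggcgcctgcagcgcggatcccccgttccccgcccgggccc
The window of Kif11 holds the CHR letters in reverse, and that of Kif2b holds a CCAAT box but no CHR. In Kif23 the CHR stands beside a reversed CCAAT box. A match is a description of letters, and no binding was measured.

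Genes that work with kinesins were also measured. Of 15 light chains and adaptors, 13 were detected, summing to 781 TPM in replicate 2 and 805 TPM in replicate 1. The 4 of highest mean TPM were Fhl5, Kifap3, Spag9 and Kif1bp. Fhl5, the germ cell coactivator that binds Kif17, had 309 TPM in replicate 2 and 409.7 TPM in replicate 1 and was not called. Kif17 was called higher in replicate 2, but not when set against genes of similar GC content. The transcript GC content was 45.1% for Fhl5 and 60.1% for Kif17. Kifap3, the non-motor subunit of the Kif3a and Kif3b complex, had 142 TPM in replicate 2 and 255 TPM in replicate 1, above either motor subunit. Spag9, a scaffold that binds kinesin-1, had 44.2 TPM in replicate 2 and 66.9 TPM in replicate 1. In this list 9 of 15 were higher and 2 lower in replicate 2, beside the 32.3% and 23.5% of all tested genes.

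All 19 spindle partners were detected, summing to 851 TPM in replicate 2 and 845 TPM in replicate 1, with 7 higher and 6 lower in replicate 2. The checkpoint kinase Bub1 had 42.3 TPM in replicate 2 and 142 TPM in replicate 1, and Aurora kinase A (Aurka) had 125 TPM in replicate 2 and 56.5 TPM in replicate 1. Prc1, which bundles midzone microtubules, had 68.6 TPM in replicate 2 and 100.4 TPM in replicate 1, and Birc5, the survivin subunit of the chromosomal passenger complex, had 82.5 TPM in replicate 2 and 72.5 TPM in replicate 1. Cenpe is a kinetochore kinesin that its name keeps out of the member rule. It had 23.6 TPM in replicate 2 and 51.4 TPM in replicate 1, a log2 ratio of -1.44, and was called lower like Kif11 and Kif15. The opposite-direction motor, cytoplasmic dynein with dynactin, was represented by 13 genes, all detected, summing to 1842 TPM in replicate 2 and 1823 TPM in replicate 1, with 3 higher and 1 lower. By mean TPM the highest were the light chains Dynll1, with 673 TPM in replicate 2 and 1152 TPM in replicate 1, and Dynlrb2, with 216 TPM in replicate 2 and 172 TPM in replicate 1, followed by Dctn2, with 343 TPM in replicate 2 and 43.3 TPM in replicate 1, and Dync1i2, with 110.1 TPM in replicate 2 and 179 TPM in replicate 1.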

How the data were processed

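Testis polyA mRNA of 1 mouse was measured in 2 technical libraries. The authors deposited a gene and a transcript table for each library, made, per the deposited notes, from transcriptome alignments on mm10 with annotation M4. Neither aligner nor quantifier is given in the sources used here. The deposited expected counts are estimated reads that need not be whole, and were rounded before testing. TPM and FPKM were scaled for length and depth by the authors. The deposited isoform share is a percent of the gene's level. The deposited posterior mean TPM was used as an alternative, and the deposited posterior SD of a count is a score that shows divided reads.

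Names and positions came from GENCODE M21 by identifier without its version, for 42462 of 43346 genes. Kinesins, role groups, lists, pairs and tests were chosen with earlier results of these data known; the motifs and overlapping neighbours were chosen after values were seen. The naming rule took every member detected in both libraries, every pair, every called member, and the 4 highest genes of each partner list. Cenpe was singled out after its values were seen. Genes were tested with a mean of 10 counts or more, with TMM factors of 1.10 for replicate 2 and 0.908 for replicate 1, and 0.5 added to each count for the ratio. Transcript GC content was known for 99.0% of tested genes. The GC correction used 100 bins of equal gene number. P-values measure only the spread of counting, since the libraries are technical. The gene test was first tested on simulated counts with known changes. That simulation held counting error alone and not the differences with GC content seen between these libraries, so it says nothing of them. Intervals and floors cover counting error only. Software was R 4.3.3, edgeR 4.0.16, DESeq2 1.42.0, Python 3.11.15, numpy 2.4.6, pandas 2.3.3, scipy 1.17.1 and matplotlib 3.10.9. An overlapping neighbour and some sequences are not reported here. Alternatives are given in the closing section. Sequences came from GENCODE M21 transcripts and, for promoters, from RefSeq on GRCm38.p6.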

Additional observations from a re-analysis of the deposited data

How the results depend on the processing

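The count of 24 kinesins called between the libraries fell to 12 with a fold limit of 4, which asks for larger ratios by construction, and to 7 when ratios were taken relative to genes of similar GC content. It was 5 when that GC content came from the transcript with most reads, an alternative added after seeing the data. It was 22 to 27 under other scalings, count filters, a fold limit of 1.5 and edgeR's exact test (coefficient of variation assumed to be 0.1). With 1 library alone, where agreement is not asked for, 17 to 19 pairs were called instead of 9, and 9 to 10 with annotated length, no length scaling or a ratio of 1.5 or more. Detected members numbered 22 to 33 under other limits and units, and 29 to 39 in 1 library alone. The median member TPM of 13.1 was 5.37, the transport median of 10.1 was 2.73 and the cilium and other median of 3.47 was 0.19 without replicate 2, and the cause was not tested. Members with the same leading transcript numbered 8 to 15, against 11. No paired analysis was possible because both libraries belong to 1 group. With 1 animal and 2 libraries, no value has a biological error, and low counts (1 to 19 reads in replicate 1 for Kif28, Kif19a, Kif26a, Kifc2, Kifc1, Kif7, Kif26b and Kifc3) limit those ratios.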

Other observations

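A processed copy of Kif4 on an autosome was listed above the gene itself. Kif4-ps, annotated as a transcribed processed pseudogene at chr12:101145614-101149758 on mm10, had 16.7 TPM in replicate 2 and 29.5 TPM in replicate 1, from 516 counts in replicate 2 and 1226 in replicate 1. X-linked Kif4 had 3.39 TPM in replicate 2 and 4.25 TPM in replicate 1, from 223 counts in replicate 2 and 442 in replicate 1. The deposited posterior SD of the Kif4-ps count was 0 reads in both libraries, so the estimate did not divide reads between the copies. The other kinesin pseudogenes matched by name, Kif22-ps and Kifc5c-ps, were listed at 0 counts in both libraries. Kif16bos, annotated as antisense, lies upstream of Kif16b without overlapping the annotated gene. Kif16bos had 23.6 TPM in replicate 2 and 5.09 TPM in replicate 1, from 102 counts in replicate 2 and 34 in replicate 1. These genes were chosen after their values were seen.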
